A study of Mus musculus with 6 samples.

Results

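Meis1, Meis2, Pbx3 and Shox2 are transcription factor genes of the proximal limb, and the question was whether chromatin at these loci opened in the distal bud when HOX13 was lost. ATAC-seq, which reads open chromatin from the sites where the transposase Tn5 inserts adapters, was done on distal forelimb buds at E11.5. Wild type had 2 libraries and Hox13-/-, which lacks functional Hoxa13 and Hoxd13, had 2, all on a mixed background of C57Bl/6 and 129. Per the study's methods each library held 50000 cells of 1 embryo, from its buds of both sides. Each genotype is thus represented by 2 embryos. The spread behind each p-value was pooled over peaks of similar signal, and is not that of the 2 embryos at the peak alone. In addition, 2 libraries of proximal forelimb buds are listed with the series and were not analysed here. Members were the peaks of the distal wild-type and Hox13-/- table with a midpoint inside one of the 4 genes or within 300 kb of its GENCODE start. By this rule 66 of the 61954 peaks belonged to the 4 loci, with 15 at Meis1, 10 at Meis2, 24 at Pbx3 and 17 at Shox2. Each peak is named by the distance of its midpoint from the gene start in kb, and positive distances run in the direction of transcription.

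MEIS1, MEIS2 and PBX3 are homeodomain proteins of the TALE class, which bind DNA together with each other and with many HOX proteins. MEIS proteins mark the proximal part of the early limb bud, where retinoic acid keeps their genes on, and signals from the distal ridge keep them off farther out. Binding to MEIS keeps PBX proteins in the nucleus. SHOX2 is a homeodomain protein of another class, which the limb needs to form the proximal long bones.

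All 4 genes lie on the minus strand of the mm10 genome. Meis1 spans chr11:18879817-19018985, Meis2 spans chr2:115863064-116065839, Pbx3 spans chr2:34171457-34373142 and Shox2 spans chr3:66971727-66981771. Accessibility was deposited as rLog values, on a log2 scale, with library size corrected and with values pulled towards the peak's mean where reads are few. The difference was taken as Hox13-/- minus wild type (KO minus WT), and a peak was called higher or lower when its adjusted p in limma, over all 61954 peaks, was under 0.05.

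Sequence is shown for the distal peak with the largest positive difference at each gene and for the lower peaks, because the called changes lay away from the starts of the 4 genes. The Meis1 promoter peak is shown with them. Sequences are from GRCm38, which is mm10, plus strand, 5′ to 3′, and peaks longer than 300 bases are shown by their central 300 bases. Capitals mark a match on either strand to CAATAAA (a HOX13-type site), TGACAG (the MEIS hexamer) or TGANTCA (an AP-1 site).
Meis1 102.0 kb, higher, chr11:18916794-18917093: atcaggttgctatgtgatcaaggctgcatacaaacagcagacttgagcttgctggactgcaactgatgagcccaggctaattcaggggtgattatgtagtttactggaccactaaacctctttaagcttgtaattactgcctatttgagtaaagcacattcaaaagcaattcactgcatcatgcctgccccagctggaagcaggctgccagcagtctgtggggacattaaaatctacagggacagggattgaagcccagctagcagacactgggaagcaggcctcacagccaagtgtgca
Meis2 168.1 kb, higher, chr2:115897583-115897882: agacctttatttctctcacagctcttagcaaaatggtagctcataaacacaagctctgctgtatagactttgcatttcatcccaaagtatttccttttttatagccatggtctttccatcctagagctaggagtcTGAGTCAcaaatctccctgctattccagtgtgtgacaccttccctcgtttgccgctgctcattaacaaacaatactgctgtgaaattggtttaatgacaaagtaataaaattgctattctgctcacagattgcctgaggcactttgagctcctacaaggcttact
Pbx3 −153.8 kb, higher, chr2:34526767-34527066: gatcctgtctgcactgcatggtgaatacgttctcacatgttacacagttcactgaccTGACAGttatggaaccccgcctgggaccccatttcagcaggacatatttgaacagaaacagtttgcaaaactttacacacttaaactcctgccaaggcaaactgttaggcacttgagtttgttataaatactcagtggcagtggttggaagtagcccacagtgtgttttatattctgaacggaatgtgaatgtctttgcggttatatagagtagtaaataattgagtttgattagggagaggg
Shox2 183.2 kb, higher, chr3:66798446-66798745: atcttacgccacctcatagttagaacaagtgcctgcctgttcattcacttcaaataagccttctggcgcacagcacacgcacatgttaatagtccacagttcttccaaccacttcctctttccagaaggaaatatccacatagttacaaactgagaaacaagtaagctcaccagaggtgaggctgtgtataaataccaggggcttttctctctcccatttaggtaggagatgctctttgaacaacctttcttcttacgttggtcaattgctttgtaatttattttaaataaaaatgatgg
Meis1 −72.7 kb, lower, chr11:19091645-19091749: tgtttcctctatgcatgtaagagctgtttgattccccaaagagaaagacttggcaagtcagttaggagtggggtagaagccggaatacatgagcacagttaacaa
Pbx3 104.4 kb, lower, chr2:34268715-34268845: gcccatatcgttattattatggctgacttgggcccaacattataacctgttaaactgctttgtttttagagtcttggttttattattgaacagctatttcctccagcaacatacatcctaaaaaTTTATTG
Shox2 −89.0 kb, lower, chr3:67070666-67070965: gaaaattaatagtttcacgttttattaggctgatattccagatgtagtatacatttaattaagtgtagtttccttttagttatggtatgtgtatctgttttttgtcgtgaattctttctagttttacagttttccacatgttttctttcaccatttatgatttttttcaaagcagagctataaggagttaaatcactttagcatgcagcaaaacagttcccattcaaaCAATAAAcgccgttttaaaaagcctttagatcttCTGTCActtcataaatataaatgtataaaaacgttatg
Meis1 −0.1 kb, promoter, not called, chr11:19018988-19019137: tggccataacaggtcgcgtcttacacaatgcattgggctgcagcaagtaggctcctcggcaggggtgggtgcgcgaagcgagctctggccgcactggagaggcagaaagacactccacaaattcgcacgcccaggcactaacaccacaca

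Each of the 4 genes had distal peaks that were more open in Hox13-/- buds, and none of their promoter peaks was called. Of the 66 peaks, 14 (21.2%) were higher in Hox13-/-, against 11.4% of all peaks, and 3 (4.55%) were lower, against 8.31%. The other 49 were not called, with differences from −0.32 to 0.29. None of the 66 passed a 2-fold threshold as well, which 0.537% of all peaks did in either direction. The member differences ran from −0.47 to 0.92, with a median of 0.10 against −0.01 over all peaks. They were positive at 44 of 66 peaks, and differences were positive at 30482 of all 61954. Both Hox13-/- libraries lay above both wild-type libraries at 26 member peaks and below them at 11. This was so at 29.7% and 29.6% of all peaks. Nearly every called peak has its libraries apart, with 7014 of all 7040 higher peaks above and 5062 of all 5146 lower peaks below. At a called peak below, genotypes that do not overlap are therefore no further evidence. When libraries were centred on their medians the split was 12 higher and 6 lower among the members, and 6017 higher and 6811 lower among all peaks, where it had been 7040 and 5146.

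Peaks were classed by their distance from a start. Of the 66, 54 were distal, 5 were promoter peaks (midpoint within 1 kb of a start of the member gene in the GENCODE basic set) and 7 lay within 1 kb of the start of another gene. Among the distal peaks 12 (22.2%) were higher and 3 (5.56%) were lower, against 15.7% and 8.24% of the 43176 distal peaks of the whole table, of which 0.746% passed 2-fold in either direction. The Hox13-/- libraries lay wholly above wild type at 23 of the 54 and wholly below at 8, against 38.6% and 23.5% of all distal peaks. Among the 12 peaks at a start, 2 were higher and 0 were lower, against 1.48% and 8.45% of all peaks within 1 kb of a start, of which 0.0586% passed 2-fold. Both higher ones lay at the start of a long noncoding RNA gene inside Pbx3. In bulk tissue, more cells with an open site and a more open site per cell cannot be told apart.

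**Figure D1:**
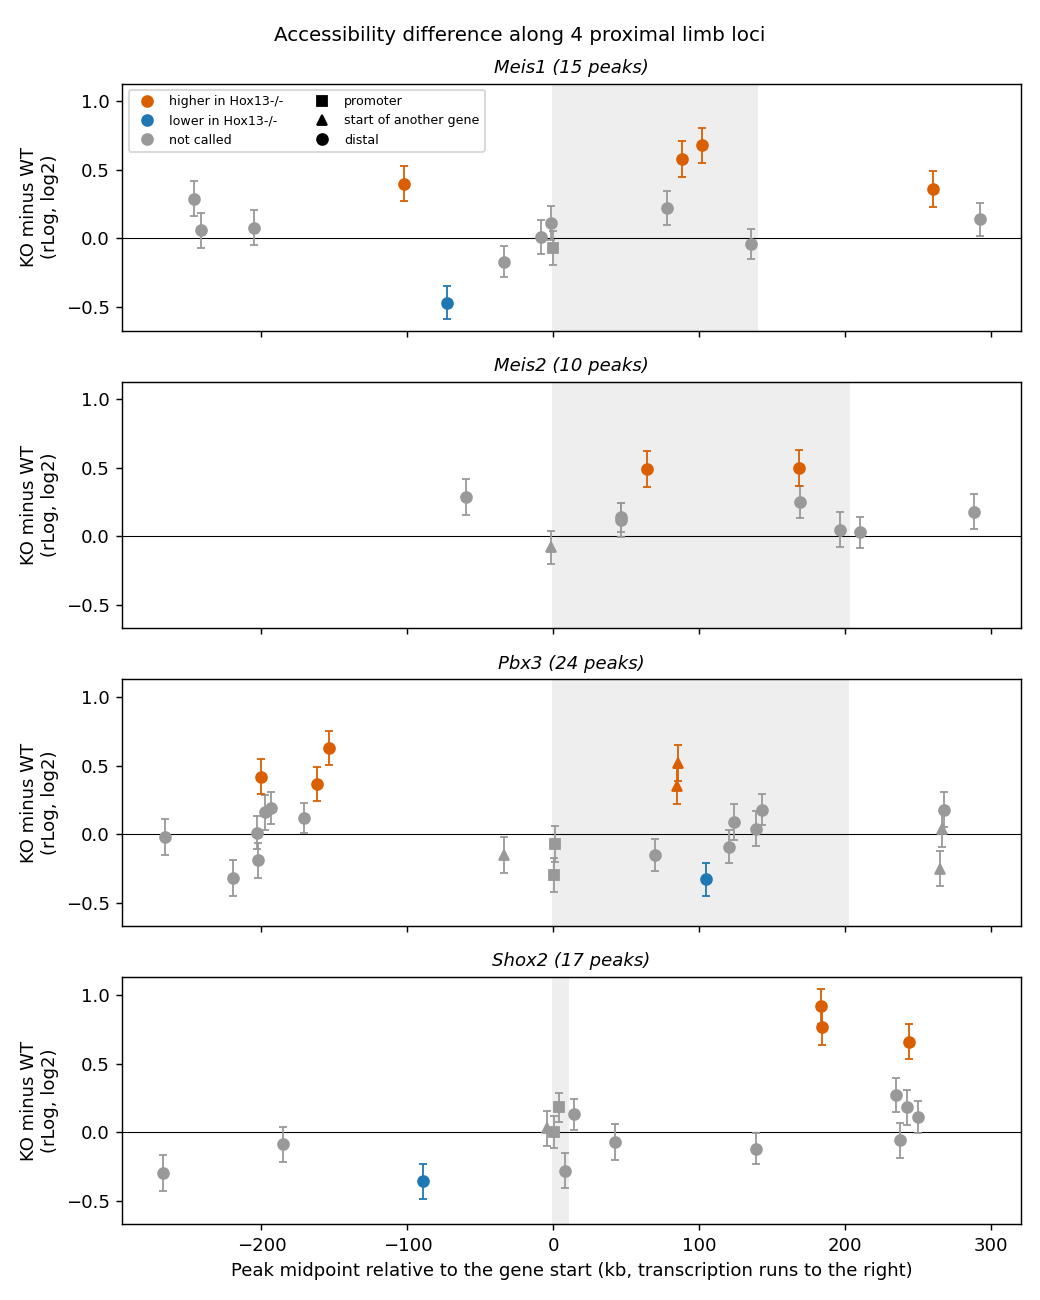
KO minus WT (rLog, log2 scale, with standard error) of each of the 66 peaks against its distance from the gene start in kb, with the gene body in grey and 2 libraries per genotype. The 14 higher peaks all lie 64.4 kb or more from their gene start, and no peak at a start of the 4 genes in the basic set is called.

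At Meis1, whose protein is a DNA-binding partner of PBX and HOX proteins and a marker of the proximal bud, 4 of 15 peaks (26.7%) were higher and 1 (6.67%) was lower. The leading peak, in an intron at 102.0 kb (chr11:18916680-18917206), read 5.40 and 5.86 in wild type against 6.33 and 6.29 in Hox13-/-. Its difference of 0.68 (standard error 0.129, 95% interval 0.43 to 0.94, adjusted p = 4.2e-06) was larger than the gap between the wild-type libraries, and the genotypes did not overlap. This was also the distal Meis1 peak with the highest mean rLog, and its sequence above holds none of the 3 motifs marked.

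A second intronic Meis1 peak, at 88.4 kb, read 5.38 and 5.31 in wild type against 5.97 and 5.89 in Hox13-/- (difference 0.58, standard error 0.130, adjusted p = 0.00015). Leaving out any 1 library kept both intronic peaks called, with differences of 0.45 to 0.91 at 102.0 kb and of 0.54 to 0.62 at 88.4 kb. The intergenic peak at −102.0 kb, upstream of the gene, read 4.17 and 4.27 in wild type against 4.81 and 4.43 in Hox13-/- (difference 0.40, adjusted p = 0.015). Here the difference rested largely on Hox13-/- replicate 1, and the call was lost without that library or without wild-type replicate 1, with a largest adjusted p of 0.40, or with a correction for GC content (adjusted p = 0.075). The peak at 260.1 kb, beyond the end of the gene, read 5.23 and 5.21 against 5.48 and 5.67 (difference 0.36, adjusted p = 0.035). Its call was lost without either wild-type library or without Hox13-/- replicate 2, when the adjusted p reached 0.30, and also with each of 3 other scalings of the libraries and with a correction for GC content.

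The lower Meis1 peak, at −72.7 kb and only 105 bp long, read 3.64 and 3.73 in wild type against 3.27 and 3.16 in Hox13-/-. The difference of −0.47 (standard error 0.120, adjusted p = 0.0011) stayed called in every fit with 1 library left out. The peak list of the authors held it in both wild-type libraries and in neither Hox13-/- library, which is no separate evidence, as the same libraries gave the call. The Meis1 promoter peak (−0.1 kb, 77 bp upstream of the start) read 4.15 and 3.96 in wild type against 3.93 and 4.03 in Hox13-/-, so the genotypes overlapped. Its difference was −0.07 (95% interval −0.32 to 0.18, adjusted p = 0.72).

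Meis2, the closest relative of Meis1 and likewise a marker of the proximal bud, had 2 of 10 peaks (20.0%) higher and 0 lower, and both higher peaks were intronic. The peak at 168.1 kb (chr2:115897518-115897946) read 6.04 and 5.83 in wild type against 6.48 and 6.40 in Hox13-/- (difference 0.50, standard error 0.129, adjusted p = 0.0012). The peak at 64.4 kb read 4.37 and 4.63 in wild type against 5.09 and 4.90 in Hox13-/- (difference 0.49, standard error 0.131, adjusted p = 0.002). The genotypes did not overlap at either peak, but neither call held in all fits with 1 library left out. Without wild-type replicate 2 the peak at 168.1 kb gave 0.40 (adjusted p = 0.061), and the peak at 64.4 kb lost its call without wild-type replicate 1 or without Hox13-/- replicate 1 (largest adjusted p = 0.12).

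The distal Meis2 peak with the highest signal, at 196.5 kb near the 3′ end of the gene, did not pass the test. It read 6.67 and 6.53 in wild type against 6.76 and 6.56 in Hox13-/-, a difference of 0.05 (95% interval −0.20 to 0.30, adjusted p = 0.80). All 9 distal Meis2 differences were above 0, from 0.03 to 0.50, as were those of 25634 of the 43176 distal peaks of the whole table. No peak lay within 1 kb of a Meis2 start in the basic set, although in the full annotation a Meis2 transcript with a retained intron starts 461 bp from the midpoint of the peak at 196.5 kb. The peak nearest to the gene start, at −1.3 kb and at the start of the noncoding gene G630016G05Rik, read 3.43 and 3.48 in wild type against 3.34 and 3.41 in Hox13-/- (difference −0.08, adjusted p = 0.67).

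At Pbx3, which encodes a partner of MEIS proteins, 5 of 24 peaks (20.8%) were higher and 1 (4.17%) was lower. The leading peak, at −153.8 kb (chr2:34526569-34527263), read 6.67 and 6.28 in wild type against 7.13 and 7.08 in Hox13-/- (difference 0.63, standard error 0.127, adjusted p = 2.0e-05). It was the distal Pbx3 peak with the highest signal, and the genotypes stayed apart although the wild-type libraries differed from each other by more than the Hox13-/- libraries did. It lies inside an intron of the neighbouring gene Mapkap1, a subunit gene of the mTOR complex, as did 10 of the 24 peaks. Of these 10, 3 were higher and 0 were lower, against 11.4% and 8.31% of all peaks. By position alone these peaks belong to either gene.

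The other higher peaks inside Mapkap1 moved less. At −200.2 kb the values were 5.75 and 5.68 in wild type against 6.22 and 6.05 in Hox13-/- (difference 0.42, adjusted p = 0.0092), and at −162.1 kb they were 3.53 and 3.53 against 3.75 and 4.04 (difference 0.37, adjusted p = 0.022). Neither call held in all fits with 1 library left out, and such fits call fewer peaks over the whole table. The differences in these fits ran from 0.34 to 0.51 at −200.2 kb and from 0.22 to 0.51 at −162.1 kb. The first was lost without wild-type replicate 2 or Hox13-/- replicate 1 (largest adjusted p = 0.15) and with the GC correction (adjusted p = 0.067), and the second was lost without either wild-type library or without Hox13-/- replicate 2 (largest adjusted p = 0.35).

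Inside Pbx3, 2 higher peaks lay 619 bp apart at the start of the noncoding gene C79798. The peak at 85.4 kb, over its first exon, read 4.94 and 4.96 in wild type against 5.40 and 5.52 in Hox13-/- (difference 0.52, adjusted p = 0.0011) and kept its call with any 1 library left out. The peak at 84.4 kb read 5.30 and 5.23 against 5.73 and 5.50 (difference 0.35, adjusted p = 0.042), and of the fits with 1 library left out it was called only in that without Hox13-/- replicate 2. The call was also lost with each of the 3 other scalings and with the GC correction. In the full GENCODE annotation a noncoding Pbx3 transcript starts 105 bp from its midpoint, so with that annotation 1 of 7 promoter peaks of the 4 genes was higher, in place of 0 of 5. The lower peak, in an intron at 104.4 kb, read 3.50 and 3.55 in wild type against 3.20 and 3.18 in Hox13-/- (difference −0.33, adjusted p = 0.031). Its call was lost with any 1 library left out, although the difference then ran from −0.36 to −0.31 (largest adjusted p = 0.14). Correction for GC content also ended the call and gave −0.20 (adjusted p = 0.25).

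The main Pbx3 promoter peak had the highest rLog of all 66. It spans the start (0.2 kb, chr2:34372496-34373424) and read 7.90 and 7.98 in wild type against 7.59 and 7.68 in Hox13-/-, a mean above that of 90.4% of all peaks near a start. Both Hox13-/- libraries lay below wild type, but the difference of −0.30 (95% interval −0.54 to −0.06) did not pass the test (adjusted p = 0.067), and it passed with median centring (adjusted p = 0.036) and when only peaks above the median signal were tested (adjusted p = 0.034). The second promoter peak, at 0.9 kb, read 5.24 and 4.84 against 4.98 and 4.94, with a difference of −0.07 (95% interval −0.33 to 0.18, adjusted p = 0.73).

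Shox2, needed for the upper bones of the limb, showed the largest differences of the 4 loci. Of its 17 peaks 3 (17.6%) were higher and 1 (5.88%) was lower, and all 3 higher ones lay in the gene-poor stretch beyond the 3′ end. The leading peak, at 183.2 kb (chr3:66798283-66798908), read 5.85 and 6.10 in wild type against 6.86 and 6.93 in Hox13-/- (difference 0.92, standard error 0.128, 95% interval 0.67 to 1.17, adjusted p = 8.2e-11). A peak 304 bp away, at 183.9 kb, read 4.36 and 4.45 against 5.15 and 5.20 (difference 0.77, standard error 0.131, adjusted p = 2.5e-07). Both differences were larger than the gap between replicates, and the genotypes did not overlap.

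The third higher Shox2 peak, at 243.4 kb, read 5.81 and 5.76 in wild type against 6.44 and 6.46 in Hox13-/- (difference 0.66, standard error 0.129, adjusted p = 8.8e-06). All 3 Shox2 calls were kept when any 1 library was left out, with differences of 0.80 to 1.05 at 183.2 kb, 0.72 to 0.81 at 183.9 kb and 0.64 to 0.69 at 243.4 kb. A neighbour of the last, at 242.0 kb and 801 bp away, read 6.31 and 6.37 against 6.51 and 6.53, and its difference of 0.18 did not pass the test (adjusted p = 0.32). Of the 10 distal peaks on this side of the gene 3 were higher and 0 lower, against 15.7% and 8.24% of all distal peaks. On the other side lay only 3, too few to compare the sides, of which 0 were higher and 1 was lower.

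That lower peak, at −89.0 kb in an intron of Rsrc1, a gene for a splicing-related protein, was the distal Shox2 peak with the highest signal. It read 6.69 and 6.79 in wild type against 6.36 and 6.39 in Hox13-/- (difference −0.36, standard error 0.128, adjusted p = 0.028). The genotypes did not overlap, but the call was lost without wild-type replicate 2 or without either Hox13-/- library (largest adjusted p = 0.16), and correction for GC content, which is low here at 31.0%, gave −0.16 (adjusted p = 0.43). The sequence above holds a CAATAAA match and a TGACAG match. At the Shox2 starts the rLog was low and no difference passed the test. The intronic peak at 0.6 kb read 3.27 and 3.12 in wild type against 3.21 and 3.19 in Hox13-/- (difference 0.00, 95% interval −0.22 to 0.23, adjusted p = 0.99), and the peak at 4.0 kb, at the start of a shorter transcript, read 2.58 and 2.55 against 2.75 and 2.75 (difference 0.18, adjusted p = 0.22).

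**Figure D2:**
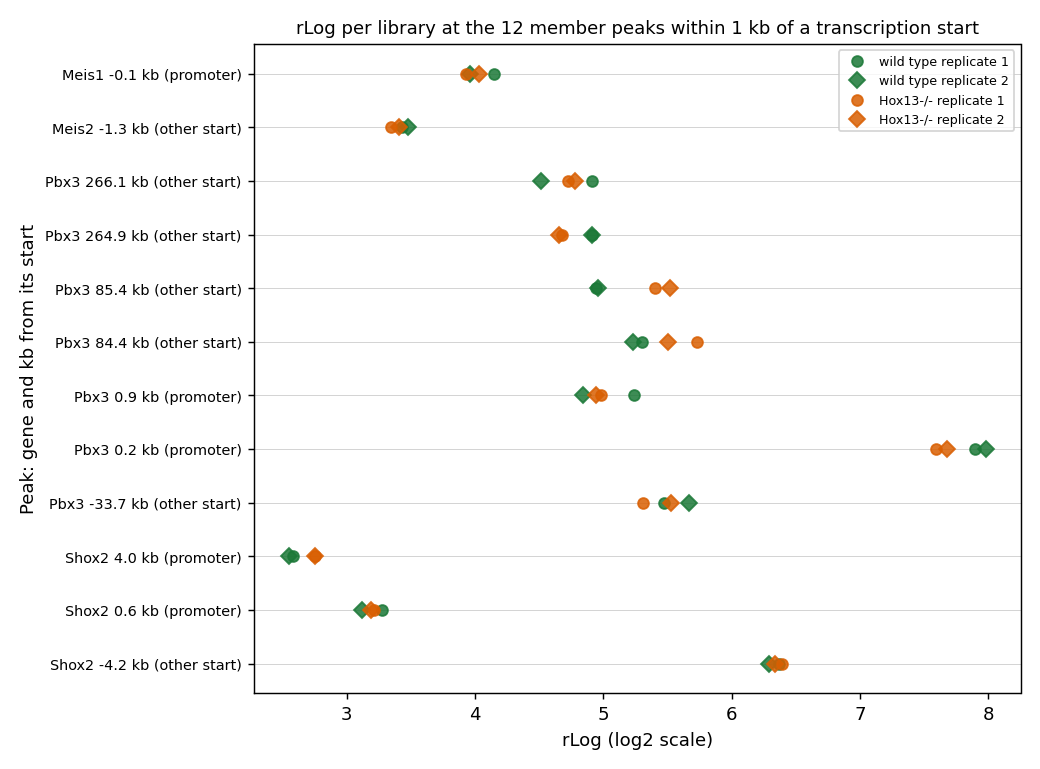
rLog (log2 scale) of each library at the 12 member peaks within 1 kb of a transcription start, with wild type in green and Hox13-/- in orange and 1 symbol per replicate. The Pbx3 peaks at 85.4 and 84.4 kb are the ones called higher, and none of the 12 is called lower.

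**Figure D3:**
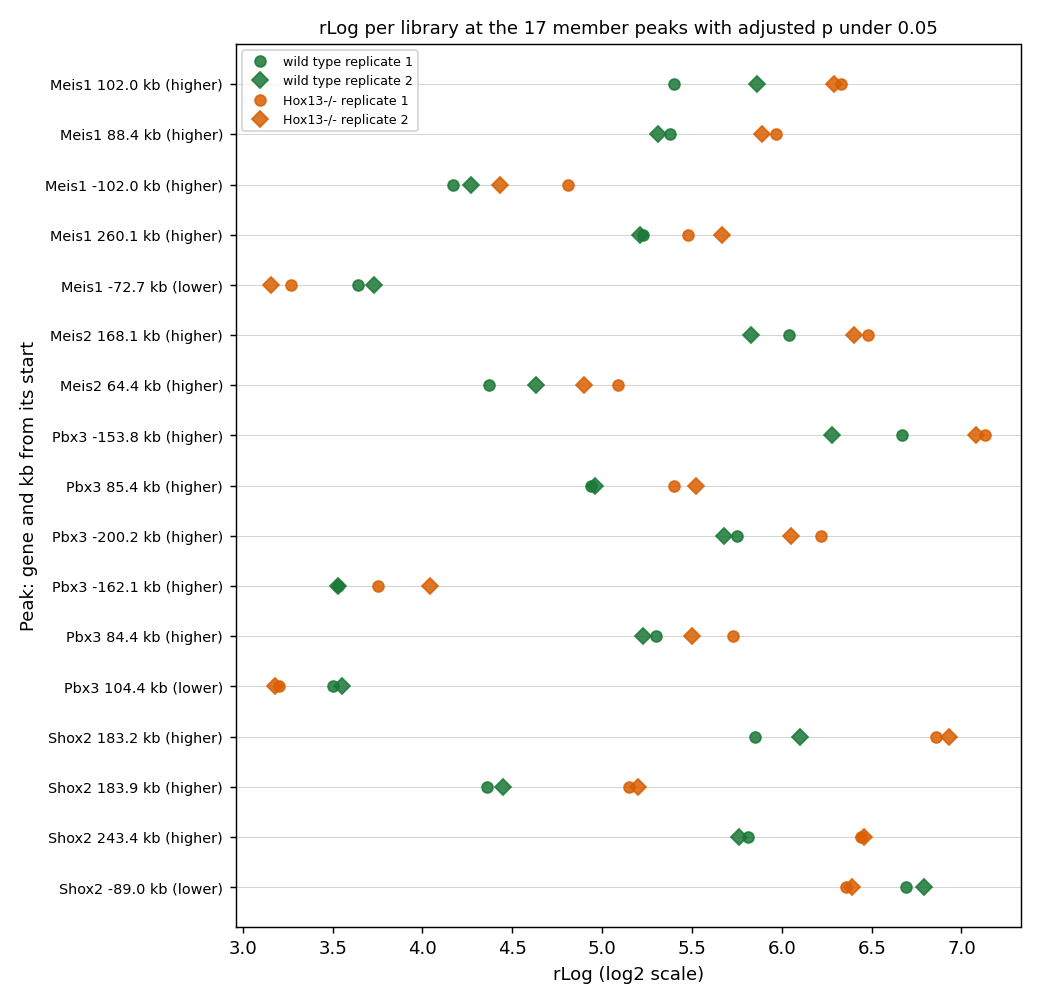
rLog (log2 scale) of each library at the 17 called peaks, with wild type in green and Hox13-/- in orange and 1 symbol per replicate. The libraries of the genotypes stand apart at all 17. The same held at 7014 of the 7040 higher and 5062 of the 5146 lower peaks of the whole table, so nothing is read from it. The widest gap is at the Shox2 peak at 183.2 kb, where wild type read 5.85 and 6.10 and Hox13-/- read 6.86 and 6.93.

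Across the genes, the mean rLog over distal peaks was above wild type in both Hox13-/- libraries. The same held over all distal peaks of the table, with 4.54 in each wild-type library and 4.60 in each Hox13-/- library. For Meis1 it was 3.99 and 4.11 in wild type against 4.23 and 4.19 in Hox13-/-, and for Meis2 it was 4.28 and 4.25 against 4.48 and 4.52. For Pbx3 it was 4.36 and 4.41 against 4.45 and 4.47, and for Shox2 it was 4.72 and 4.69 against 4.84 and 4.82. The median distal difference, which a few strong peaks move less, was 0.12 at Meis1, 0.18 at Meis2 and 0.09 at Pbx3, against 0.06 over all distal peaks. At Shox2 it was 0.02, and the 3 higher peaks there stood well apart from the other 11.

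**Figure D4:**
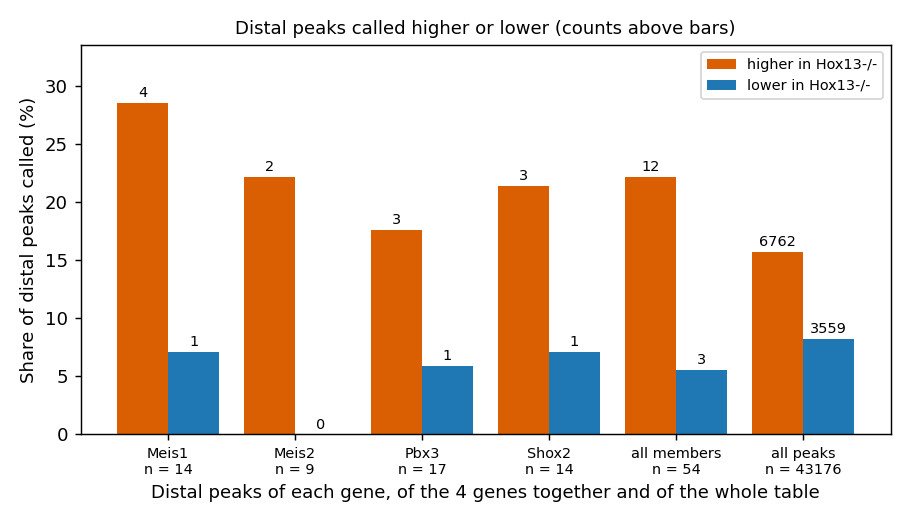
Share in percent of distal peaks called higher (orange) or lower (blue) at each gene, over the 4 genes and over the whole table, with the number of peaks called above each bar. The share of higher peaks runs from 17.6% at Pbx3 to 28.6% at Meis1, against 15.7% over all distal peaks.

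The 14 higher peaks lay from 64.4 to 260.1 kb from the start of their gene, and 49 of all 66 members (74.2%) lay 64.4 kb or more away. Of the 14 higher peaks, 6 lay inside the member gene and 8 outside it, and by annotation 8 were intronic, 5 intergenic and 1 exonic. The same split over all 66 members is not given here, so nothing is read from these positions. By signal, of the 28 members above the median rLog of all peaks, 4.73, 12 (42.9%) were higher and 1 was lower, against 16.4% and 10% of all peaks above it. Of the 38 members below it, 2 (5.26%) were higher and 2 were lower, against 6.34% and 6.57%. In the whole table, peaks within 1 kb of a start had a median signal of 5.83, against 4.43 at distal peaks. Of these start peaks 1.48% were higher, against 15.7% of the distal ones. As 54 of the 66 members were distal, the shares by signal compare unlike mixes of peaks, and shares for distal peaks alone were not computed. Depth per peak is unknown, and shrinkage makes differences of weak peaks smaller, so a change in the 38 weak peaks was harder to detect.

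The calling of peaks in single libraries gave a coarser view of the same sites. The peak lists of the authors, called in each library, held 12 of the 14 in both Hox13-/- libraries, as they did 52.5% of all peaks. Of those 12, 7 were also in 1 wild-type list and 5 were in none, and 11.2% of all peaks were in both Hox13-/- lists and no wild-type list. None was in both wild-type lists, which held 38.2% of all peaks. The members in question were chosen as higher in Hox13-/-, so nothing is read from these shares. Of the 3 lower peaks, 2 were in both wild-type lists and neither Hox13-/- list, as were 2.98% of all peaks. These 3 were chosen as lower in the same libraries, so nothing is read from that share either. At the leading Shox2 peak the wild-type mean of 5.98 lay above the median rLog of all peaks, 4.73.

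Motif matches are given as a description of the sequences. CAATAAA was in 8 of 66 member peaks (12.1%), in 3 of the 14 higher and in 2 of the 3 lower. It was in 6.43% of all peaks, in 11% of all higher peaks and in 12.4% of all lower peaks. TGACAG was in 12 (18.2%), in 4 of the 14 higher and in 1 of the 3 lower, against 18.1% of all peaks and 29% of all higher peaks. The higher members were long, with a median of 425 bp against 250.0 bp over all peaks. TGANTCA, a palindrome, was in 5 (7.58%), of which 2 were higher, against 6.99% of all peaks and 12.6% of all higher peaks. The higher Pbx3 peak at −200.2 kb held matches of the HOX13 type and the MEIS hexamer. It was the only member with a HOX-PBX site (TGATTNAT), which 3.36% of all peaks and 7.6% of all higher peaks hold. TGAT directly followed by TGACAG, a PBX-MEIS site, was in 0 of 66 and in 0.197% of all peaks, and CTCF sites were in 2 (3.03%) against 6.18%. A direct repeat of GGTCA spaced as for the retinoic acid receptor was in 1 member, the Meis2 peak at 196.5 kb that did not change past the test, and in 0.042% of all peaks. Matches of such short motifs on both strands say nothing of binding.

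Among the 16861 protein-coding genes with at least 10 peaks by the same window, the share of higher peaks at Meis1 was above that of 97.7% of genes. It was above that of 94.2% for Pbx3, 92.6% for Meis2 and 89.7% for Shox2, with a median gene at 5.7% higher and 7.1% lower. Neighbouring genes share peaks, so these are descriptions. The windows also mix peaks within 1 kb of a start, of which 1.48% were higher in the whole table, with distal peaks, of which 15.7% were. Genes were not ranked on distal peaks alone. Among distal peaks the shares were 28.6% at Meis1, 17.6% at Pbx3, 22.2% at Meis2 and 21.4% at Shox2, against that 15.7%. With the distance taken over the shares of higher and of lower peaks, other genes had shares identical to those of each member. There were 9 for Meis1, the first by name being 5530401A14Rik, Acvr1 and Btbd9, and 11 for Pbx3, the first being Cpsf6, Dennd4a and Gcnt1. For Meis2 there were 85, the first being 1300017J02Rik, Abcb5 and Arhgap21, and for Shox2 there were 35, the first being 1700030K09Rik, 1810049J17Rik and 4930579G24Rik.

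For related genes the same windows were counted, beside shares over all peaks of 11.4% higher and 8.31% lower. Over the windows of 7 other TALE genes (Meis3, Pbx2, Pbx4, Pknox1, Pknox2, Tgif1 and Tgif2), 21 of 235 peaks (8.94%) were higher and 23 (9.79%) were lower, with a median difference of −0.05. The lower count fell to 13 to 15 when any 1 of the 4 libraries was left out and was 14 with the GC correction. Pknox2, which encodes a MEIS-related partner of PBX proteins, had most of the higher peaks, with 15 of 59 peaks (25.4%) higher and 3 lower and a largest difference of 0.76 at 57.1 kb. Pbx2 had 0 of 26 higher and 3 lower. Over 14 genes patterned in the proximal limb segments (Hoxa9, Hoxd9, Hoxa10, Hoxd10, Hoxa11, Hoxd11, Emx2, Tbx18, Zbtb16, Irx3, Irx5, Hand2, Scx and Osr1), 52 of 379 peaks (13.7%) were higher and 37 (9.76%) were lower, with a median of 0.03. Without Hox13-/- replicate 1 these counts were 27 and 24, and without wild-type replicate 1 they were 30 and 25. Tbx18 had 7 of 28 higher and 4 lower, Irx3 had 6 of 29 higher and 3 lower, and Osr1 had 2 of 24 higher and 7 lower. No list or gene was tested against all peaks. The largest differences at Emx2 (1.18 at −64.2 kb) and at the Hoxa genes (1.23 at −25.4 kb from the Hoxa11 start) exceeded all of the members'.

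The 300 kb limit cut through the loci, and the values on each side are given without a test. The farthest Meis1 peak inside, at 292.0 kb, had means of 3.43 in wild type and 3.57 in Hox13-/-, and the first outside, at 304.5 kb, had 5.49 and 6.18. For Meis2 the peak inside at 288.2 kb had 4.07 and 4.25 and the one outside at 307.5 kb had 3.56 and 3.77. For Pbx3 they were 4.28 and 4.46 inside at 267.7 kb, but 6.04 and 4.52 outside at 318.8 kb, a difference of −1.52. For Shox2 they were 4.65 and 4.35 inside at −267.2 kb, and 3.90 and 3.57 outside at 391.1 kb.

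The rLog values of replicates correlated with r = 0.993 in each genotype, over peaks, against 0.979 to 0.98 between genotypes. Peaks at the starts of 9 of 9 distal limb mesenchyme genes were present, and of their 18 peaks 0 were higher and 1, at Twist1, was lower (−0.40). Promoter peaks were found for 1 of 5 muscle precursor genes, 3 of 6 endothelial, 1 of 6 blood, 2 of 6 ectodermal, 0 of 3 neural crest and 3 of 3 cartilage genes, and of these 14 peaks 0 were higher and 1, at Erg, was lower (−0.46). The part of these differences in the member values was not tested. Over all peaks within 1 kb of a start 1.48% were higher and 8.45% were lower. Whether the mix of cells differed between genotypes was not tested. Of the targeted genes, 1 of 2 peaks at Hoxd13 starts read 4.06 and 4.17 in wild type against 3.70 and 3.50 in Hox13-/- (adjusted p = 0.00061) and the other read 3.55 and 3.50 against 3.49 and 3.62 (adjusted p = 0.88). The peak at the Hoxa13 start read 5.71 and 5.95 against 5.66 and 5.84 (adjusted p = 0.71). Accessibility there does not measure expression.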

How the data were processed

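ATAC-seq was compared between distal forelimb buds of 2 wild-type and 2 Hox13-/- embryos. Per the submitters' processing notes and the study's methods, the authors aligned reads to mm10 with Bowtie2 2.3.1, called peaks per library with MACS2 2.1.1.20160309, merged them with HOMER 4.9.1 and used SAMtools 1.4.1 and DESeq2. The authors deposited rLog values (log2 scale, DESeq2) per library and peak, with their own fold changes and p-values, which were not used. Handling of duplicates and of the Tn5 offset is not given in the sources used here. No counts are among these values, so depth per peak is unknown and a count test could not be run. The table covers 19 autosomes.

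KO minus WT was tested in R 4.3.3 by limma 3.58.1 over all 61954 peaks (genotype term, trend on mean signal, two-sided, Benjamini-Hochberg), after testing on simulated data. Pooling of the variance left standard errors nearly the same whatever the gap between replicates at a peak. The standard error was 0.129 at the Meis1 peak at 102.0 kb and at the Shox2 peak at 243.4 kb. Their standard deviations between wild-type libraries were 0.33 and 0.036. A permutation of 2 against 2 libraries cannot go below p = 0.33. Genes came from GENCODE M21 basic, and sequence and motifs from GRCm38, read with pysam 0.24.0 in Python 3.11.15 (pandas 2.3.3, matplotlib 3.10.9). The members and lists were chosen with earlier results of these data known. One gene of the lists is not reported here. Promoter peaks, up to 3 called distal peaks per gene and direction, and the strongest distal peak were named by rule. The Meis1 peak at 260.1 kb and the Pbx3 peaks at 85.4 and 84.4 kb fall outside it and were named after their values were seen, as were the not-called Meis2 peak at −1.3 kb and Shox2 peak at 242.0 kb. Most-like genes have the smallest distance in percent of peaks higher and lower. Alternatives were other scalings, no trend, only peaks above the median signal, stricter thresholds, a replicate block, a GC correction, each library left out, and other windows and starts. The starts of the full GENCODE annotation were added after seeing the data.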

Additional observations from a re-analysis of the deposited data

How the results depend on the processing

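The 3 Shox2 higher peaks, the Meis1 peaks at 102.0 and 88.4 kb, the Pbx3 peaks at −153.8 and 85.4 kb and the lower Meis1 peak at −72.7 kb, 7 of 14 higher and 1 of 3 lower, stayed called in 11 fits: 3 scalings, no trend, the block, the GC correction, both together, and each of the 4 libraries left out. No difference that was called changed sign. Depth per peak is unknown, and shrinkage limits what weak peaks can show. The cause of the changes below was not tested.

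Counts of higher peaks (4 at Meis1, 2 at Meis2, 5 at Pbx3, 3 at Shox2) became 2 at Meis1 and 3 at Pbx3 with the GC correction, with or without the block, and at an adjusted p under 0.01. Testing only peaks above the median signal left 3 at Pbx3, where the peak at −162.1 kb, with a mean rLog of 3.71, was not among those tested. With a fold change beyond 1.5 they were 1 at Meis1, 0 at Meis2 and 1 at Pbx3, and beyond 2 they were 0 at all 4. A window of 100 kb gave 2 at Meis1, 2 at Pbx3 and 0 at Shox2, and a window of 500 kb gave 7 at Meis1. Leaving out 1 library gave 2 to 3 at Meis1, 1 to 2 at Meis2, 2 to 4 at Pbx3 and 3 at Shox2.

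Counts of lower peaks (1 each at Meis1, Pbx3 and Shox2) became 3 at Pbx3 and 2 at Shox2 with median centring, and 2 at Pbx3 with quantile normalization, with cyclic loess, without the trend and with the block and GC correction together. They became 0 at Pbx3 and Shox2 at an adjusted p under 0.01, and 0 at all 3 beyond a fold change of 1.5 or 2. Among peaks above the median signal the count was 0 at Meis1, because its lower peak, with a mean rLog of 3.45, was not among the peaks tested. A window of 500 kb gave 3 at Pbx3 and 2 at Shox2. Leaving out 1 library gave 1 to 2 at Meis1, 0 to 1 at Pbx3 and 0 to 1 at Shox2. Of all the members together, 14 higher and 3 lower became 10 and 4 with the block and GC correction.

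Median distal differences (0.12, 0.18, 0.09 and 0.02 at Meis1, Meis2, Pbx3 and Shox2) became 0.15, 0.06 and −0.01 at the last 3 with median centring, 0.04 at Pbx3 and 0.00 at Shox2 with quantile normalization, and 0.05 at Pbx3 with cyclic loess. With the GC correction, with or without the block, they were 0.15 at Meis2 and 0.00 at Shox2. Among peaks above the median signal they were 0.58 at Meis1, 0.39 at Meis2 and 0.18 at Shox2. The value at Meis1 rests on 3 peaks, all of them called higher. A window of 100 kb gave 0.06, 0.25, −0.02 and −0.17, and one of 500 kb gave 0.19 at Meis1, −0.08 at Pbx3 and 0.13 at Shox2. The starts of the full annotation gave 0.22 at Meis2. Leaving out 1 library gave 0.14 to 0.20, 0.15 to 0.28, 0.04 to 0.12 and −0.01 to 0.07.

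Over all peaks, 7040 higher and 5146 lower became 2064 and 965 beyond a fold change of 1.5, and 194 and 139 beyond 2. At an adjusted p under 0.01, 2711 were lower, and among peaks above the median signal 3268 were lower. Leaving out 1 library gave 4650 to 5008 higher and 2865 to 3552 lower, with the remaining library of that genotype assumed to vary like the others. Differences that changed sign were all at peaks not called. The Meis2 peak at 196.5 kb became −0.03 with the GC correction, with or without the block, and the Pbx3 peak at 0.9 kb became 0.08. The Shox2 peak at 0.6 kb became −0.03 with median centring. Without 1 library these 3 ran from −0.05 to 0.16, −0.27 to 0.12 and −0.07 to 0.08, and the Meis1 promoter peak ran from −0.17 to 0.02.

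Deviations of same-numbered replicates from their genotype means correlated at −0.0106 over peaks, so no shared deviation was seen. This cannot show whether the embryos were paired by litter or by handling. The replicate block gave 14 higher and 3 lower members, and 7013 higher and 4967 lower peaks in all, and changed no member call.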
